A study of Mus musculus with 3 samples.

Results

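Histone H3 trimethylated on lysine 4 (H3K4me3) was mapped in mouse granulosa cells around ovulation. Of 14778 H3K4me3 domains, 639 had a peak at both 4 h and 12 h after the ovulatory signal and none before it. These domains were chosen by the presence of deposited peaks. Peaks of the 3 lists on the autosomes and X were pooled, peaks separated by at most 1 kb were joined into a domain, and a domain was kept when it held a 4 h peak and a 12 h peak and no 0 h peak. The choice therefore fixed that each domain has 0 covered bp at 0 h and some at both later times. Its absence at 0 h and presence later are the rule and not a result.

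H3K4me3 is laid down by SET1 and MLL methyltransferase complexes and marks the nucleosomes around the starts of active or poised genes. In the preovulatory follicle, luteinizing hormone acts on granulosa cells through cyclic AMP and ERK signalling. It sets off cumulus expansion, follicle rupture and the change of granulosa cells into progesterone-producing luteal cells.

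The cells came from wild type C57BL/6 female mice of postnatal day 21 to 28. All mice had received 4 IU of eCG, a gonadotropin that drives follicle growth, and were sampled without hCG (0 h), or at 4 h or 12 h after 5 IU of hCG, which acts in place of the LH surge. Granulosa cells were released by puncturing follicles, so no sort separated them from other ovarian cells. There was 1 library per time, and the sources used here do not say how many mice went into each. No difference between times has a replicate check, no test across libraries was possible, and no p-value is given. Values describe these 3 libraries, and a mark on fewer cells and less mark per cell cannot be told apart.

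Between 20644 (12 h) and 23619 (4 h) peaks per list lay on the chromosomes used, with no score, height or read depth, so the sequencing depth is unknown. The 12 h library ran in another lane (5 and not 4), and its peak names lack a tag (nolambda) that the others carry. Whether the peak-calling setting differed is not known, and in every comparison of 12 h with 4 h below, lane, calling and time cannot be told apart. Of 14 granulosa cell markers, 8 had a domain within 1 kb of a gene start at 0 h, 7 at 4 h and 8 at 12 h. Foxl2, Inhba, Amh, Nr5a2 and Gata4 had none there at any time. None of 8 immune markers had one at any time, and of 8 endothelial markers 1 had one at 0 h, 2 at 4 h and 1 at 12 h. Of 4 theca markers 2 had one at each time, and of 8 oocyte markers 1 at each time. Of 5 epithelial markers 2 had one at 0 h, 1 at 4 h and 1 at 12 h, and of 7 stromal and smooth muscle markers 1 had one, at 4 h. One endothelial marker, Kdr, a VEGF receptor gene, had a gained and kept domain, covering 164 bp at 12 h, against 347 bp at 4 h. No marker of granulosa, theca, oocyte, immune, stromal or epithelial cells had one. The part of other cell types in the results was not tested.

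Several domains lay beside gene starts whose upstream sequence is given by RefSeq (GRCm38.p6, the same assembly as mm10). The 250 bases before the start are shown for 6 of them. These were chosen after their values were seen, because they span kinds of promoter found in the class. They are not a representative sample of it. Capitals mark matches to any of the 9 short motifs searched. The upstream sequences of Tnfaip6 (chr2:52037863-52038112, plus strand) and Sphk1 (chr11:116531661-116531910, plus strand) hold an AP-1 motif, TGANTCA. Those of Arl4d (chr11:101665291-101665540, plus strand) and Epha2 (chr4:141300971-141301220, plus strand) hold a full cyclic AMP response element, TGACGTCA. That of Timp1 (chrX:20869916-20870165, plus strand) has neither but holds an SP and KLF motif, GGGCGGG, as do those of Tnfaip6 and Epha2. That of Cyp11a1 (chr9:58014702-58014951, plus strand) has none of the 9 motifs and few CpG pairs. Over the 300 promoter windows of the class described below, 51.3% hold the SP and KLF motif. The AP-1 motif is in 8.67% of them and the cyclic AMP response element in 2.33%.
Tnfaip6: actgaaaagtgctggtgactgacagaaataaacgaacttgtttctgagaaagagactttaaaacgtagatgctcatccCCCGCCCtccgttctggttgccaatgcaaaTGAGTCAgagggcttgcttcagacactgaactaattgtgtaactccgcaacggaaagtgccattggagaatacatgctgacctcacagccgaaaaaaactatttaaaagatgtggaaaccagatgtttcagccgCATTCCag
Sphk1: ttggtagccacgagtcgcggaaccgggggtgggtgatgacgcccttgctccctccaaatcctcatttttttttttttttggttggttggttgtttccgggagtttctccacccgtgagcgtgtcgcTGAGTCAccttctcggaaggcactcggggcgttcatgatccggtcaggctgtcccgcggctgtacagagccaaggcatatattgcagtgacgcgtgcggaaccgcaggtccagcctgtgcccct
Arl4d: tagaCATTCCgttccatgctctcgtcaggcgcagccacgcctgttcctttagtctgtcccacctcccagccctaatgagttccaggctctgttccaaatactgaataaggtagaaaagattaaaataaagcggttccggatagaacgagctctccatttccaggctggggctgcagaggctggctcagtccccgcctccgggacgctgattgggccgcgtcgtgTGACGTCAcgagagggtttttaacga
Epha2: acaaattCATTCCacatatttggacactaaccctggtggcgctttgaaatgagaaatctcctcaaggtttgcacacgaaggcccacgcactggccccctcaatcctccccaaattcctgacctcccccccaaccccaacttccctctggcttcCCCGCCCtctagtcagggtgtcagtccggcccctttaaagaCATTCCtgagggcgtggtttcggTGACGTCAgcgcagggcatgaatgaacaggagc
Timp1: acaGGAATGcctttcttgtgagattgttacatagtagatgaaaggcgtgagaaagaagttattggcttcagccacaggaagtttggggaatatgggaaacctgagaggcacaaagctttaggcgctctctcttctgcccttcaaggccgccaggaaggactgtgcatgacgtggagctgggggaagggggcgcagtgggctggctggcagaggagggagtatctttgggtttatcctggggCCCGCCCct
Cyp11a1: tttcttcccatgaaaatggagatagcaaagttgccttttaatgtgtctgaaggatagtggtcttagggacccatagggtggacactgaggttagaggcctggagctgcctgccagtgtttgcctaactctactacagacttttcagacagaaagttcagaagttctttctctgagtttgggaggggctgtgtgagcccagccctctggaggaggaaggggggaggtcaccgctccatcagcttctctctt

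In Tnfaip6 the AP-1 motif began 142 bases before the start, and in Sphk1 124 bases before it. The cyclic AMP response element began 26 bases before the start of Arl4d and 33 before that of Epha2. A match is a description of the letters and no evidence of binding.

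Gained and kept domains were of middling width. Their median width was 541 bp (quartiles 334 and 894.5, range 153 to 2943), and 126 of the 639 were wider than 1 kb and 15 wider than 2 kb. Domains seen at a single time were narrower, with medians of 179 bp at 0 h, 179 bp at 4 h and 201 bp at 12 h. Domains present at all 3 times were wider, with a median of 1236 bp. This order follows in part from the rule, since a width spans the joined peaks of all times in a domain. A gained and kept domain must hold at least 2 peaks, while 982 of the 1112 domains of 4 h alone held a single one. The classes lost by 12 h (0 h and 4 h) or absent at 4 h alone had medians of 481 and 480 bp, close to the gained and kept class. The summed covered length of the 639 domains was 233 kb at 12 h and 244 kb at 4 h. Most were simple: 400 held a single peak at each of the later times, and none held more than 5 at either. The peaks of the later times met in most domains, since 517 (80.9%) shared at least 1 bp between 4 h and 12 h. The other 122 were joined through the 1 kb gap alone. Over all 639 the Jaccard index of covered bp between 12 h and 4 h was 0.384.

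**Figure D1:**
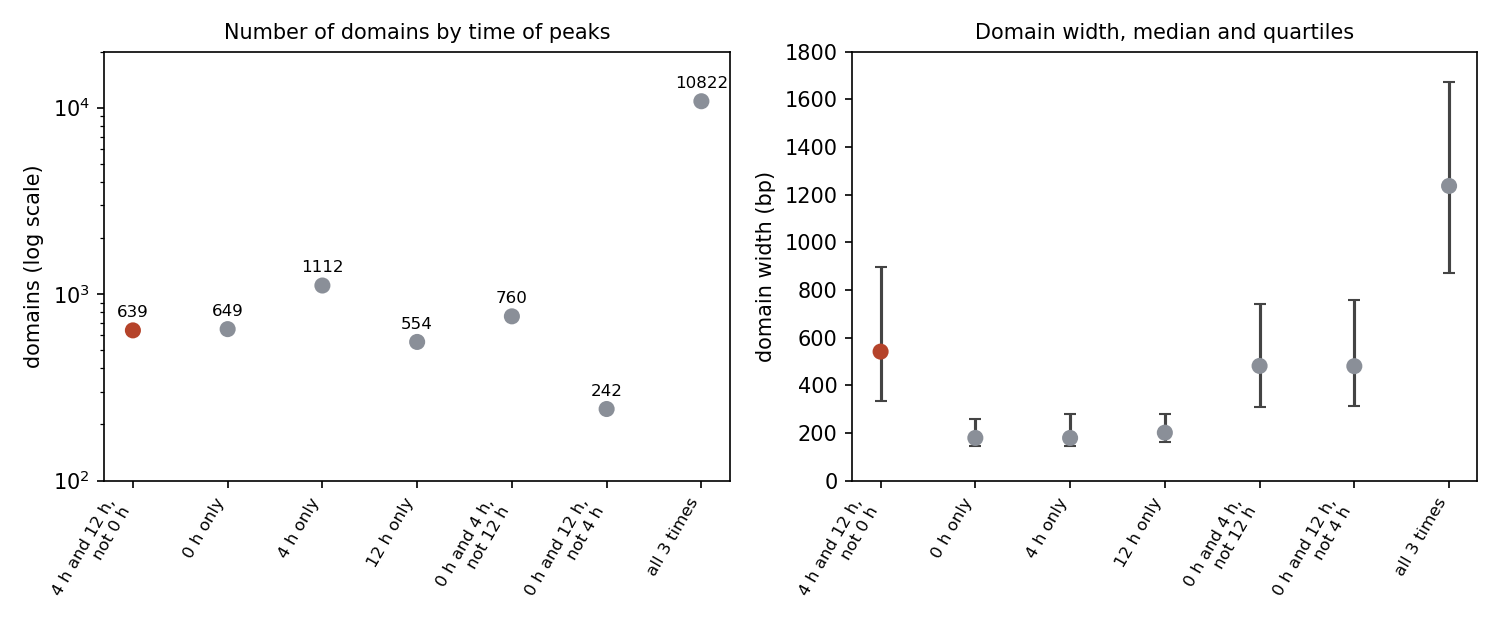
Number of H3K4me3 domains (left, log scale) and domain width in bp (right) for each combination of times with a peak; points on the right are medians and bars run between quartiles. The 639 domains with a 4 h and a 12 h peak and no 0 h peak have a median width of 541 bp, between domains of a single time (179 to 201 bp) and those of all 3 times (1236 bp). A width spans the peaks of all times in a domain, so this order follows in part from the rule.

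About as many of these domains lay at a gene start as away from one. Of the 639, 324 were within 1 kb of an annotated start of a protein-coding gene (50.7%, 95% Clopper-Pearson interval 46.8 to 54.6, counting error only), 125 lay elsewhere in a gene (19.6%) and 190 were intergenic (29.7%). The gene start share was 31.1% (28.4 to 33.9) among domains seen at 4 h alone and 84.8% (84.1 to 85.5) among domains of all 3 times. The other classes seen at 2 times had shares close to the gained and kept one, 49.1% for 0 h and 4 h without 12 h and 52.5% for 0 h and 12 h without 4 h. At gene starts the gained and kept domains had a median width of 637.5 bp, against 509 bp elsewhere in genes and 424 bp between genes. Domains are not replicates of a condition, and no test was made between these shares. Leaving out peaks narrower than the 25th width percentile of each list kept 51.0% of these domains and gave a gene start share of 59.0%.

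**Figure D2:**
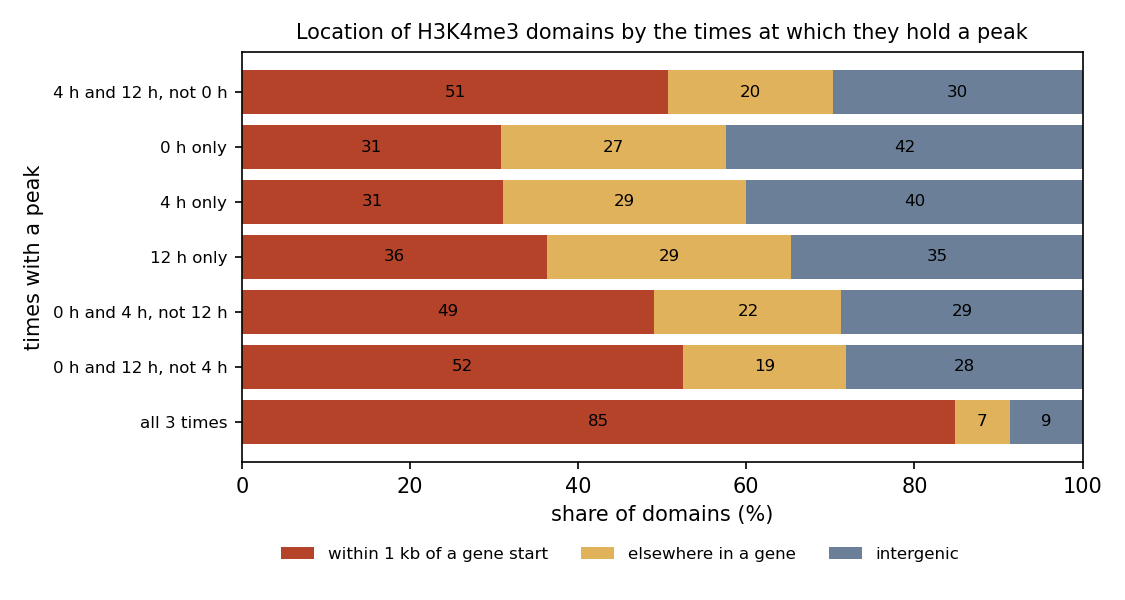
Share of domains (%) within 1 kb of a protein-coding gene start, elsewhere in a gene and between genes, for each combination of times with a peak. Of the domains with a peak at 4 h and 12 h and none at 0 h, 50.7% are at gene starts, against 84.8% of those with a peak at all 3 times.

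Where the strand was known, the domains sat mainly downstream of the start. Among 252 such domains, 155 (61.5%) lay wholly downstream of the nearest start, 77 (30.6%) spanned it and 20 (7.94%) lay wholly upstream. Of 7641 domains of all 3 times with known strand, 45.3% lay downstream, 53.6% spanned the start and 1.06% lay upstream. Of 264 seen at 4 h alone, 180 (68.2%) lay downstream, 39 (14.8%) spanned the start and 45 lay upstream. A narrower domain is less able to span a start. Gene start domains had a median width of 637.5 bp in the gained and kept class, 1281 bp at all times and 195.5 bp at 4 h alone. The part of width in these shares was not tested. By covered length the classes were closer: 84.6% of the gained and kept bp at 12 h and 82.5% at 4 h lay downstream, against 82.5% and 81.7% for the domains of all times.

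The domains away from gene starts lay a median of 22.7 kb from the nearest one, and the farthest was 1035 kb away. Of these 315, 35 (11.1%) lay within 1 kb of the start of a long non-coding RNA gene, against 5.48% of 766 such domains seen at 4 h alone, 10.5% of 353 seen at 12 h alone and 14.2% of 1647 seen at all 3 times. The nearest protein-coding gene of 158 (50.2%) already had a 0 h domain at a start, and so did 50.2% of all protein-coding genes. Among the 125 domains inside genes, 54 (43.2%) lay in a gene with a 0 h domain at its start, against 57.3% of 321 such domains seen at 4 h alone. At gene starts, 334 genes had a gained and kept domain within 1 kb. Of these, 22 also had a 0 h domain at another place within 1 kb of a start. The rule leaves out domains that hold a 0 h peak, so this low count is fixed in part by the choice. Whether these 0 h domains mark a second start was not tested.

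The choice rested on thresholds, and the values on either side of them were as follows. The nearest 0 h peak was a median of 43.1 kb away, and 176 domains had none within 100 kb. Just inside, 13 domains had a 0 h peak at most 2 kb away, the nearest at 1043 bp. They include the start of the zinc finger gene Egr2 (1211 bp), that of Brca1, a DNA repair gene (1094 bp), and that of Tbp (1789 bp). Just outside, 229 domains of all 3 times held a single 0 h peak of at most 150 bp, where the narrowest 0 h peak had 136 bp. Their medians were 139 bp at 0 h, 314 bp at 4 h and 299 bp at 12 h. Among those with the most covered bp were Klf2 (138, 1717 and 1776 bp at 0 h, 4 h and 12 h), a Krüppel-like factor gene, and Junb (136 bp at 0 h, 1839 at 4 h and 1579 at 12 h), an AP-1 gene. Runx2, a RUNX factor gene, had 136 bp at 0 h, 2226 at 4 h and 895 at 12 h, and Zfp36, an mRNA decay factor gene, had 137, 1044 and 2090 bp at the same times. A single narrow 0 h peak kept these genes out of the class. These genes were named after their values were seen.

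Covered length was larger at 12 h in some domains and smaller in others. The rule fixed that both values are above 0 but not which is larger. The median log2 ratio of covered bp, 12 h over 4 h, was 0.04 (95% order-statistic interval -0.01 to 0.09; quartiles -0.54 and 0.45), with 335 domains covering more bp at 12 h, 302 fewer and 2 the same. Over the 10822 domains of all times the median was -0.12. At least 2-fold more bp at 12 h was found in 63 of the 639 (9.86%), against 2.79% of the domains of all times, and at least 2-fold fewer in 72 (11.3%), against 6.53%. The spread of the ratio was also larger, with an SD of 0.80 over the gained and kept domains and 0.57 over those of all times. The median width was 541 bp in the gained and kept domains and 1236 bp in those of all times, and the part of width in this spread was not tested. Among the 206 domains with at least 300 bp at both times the median was -0.10, and it was -0.044 when equal numbers of the widest peaks were used.

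**Figure D3:**
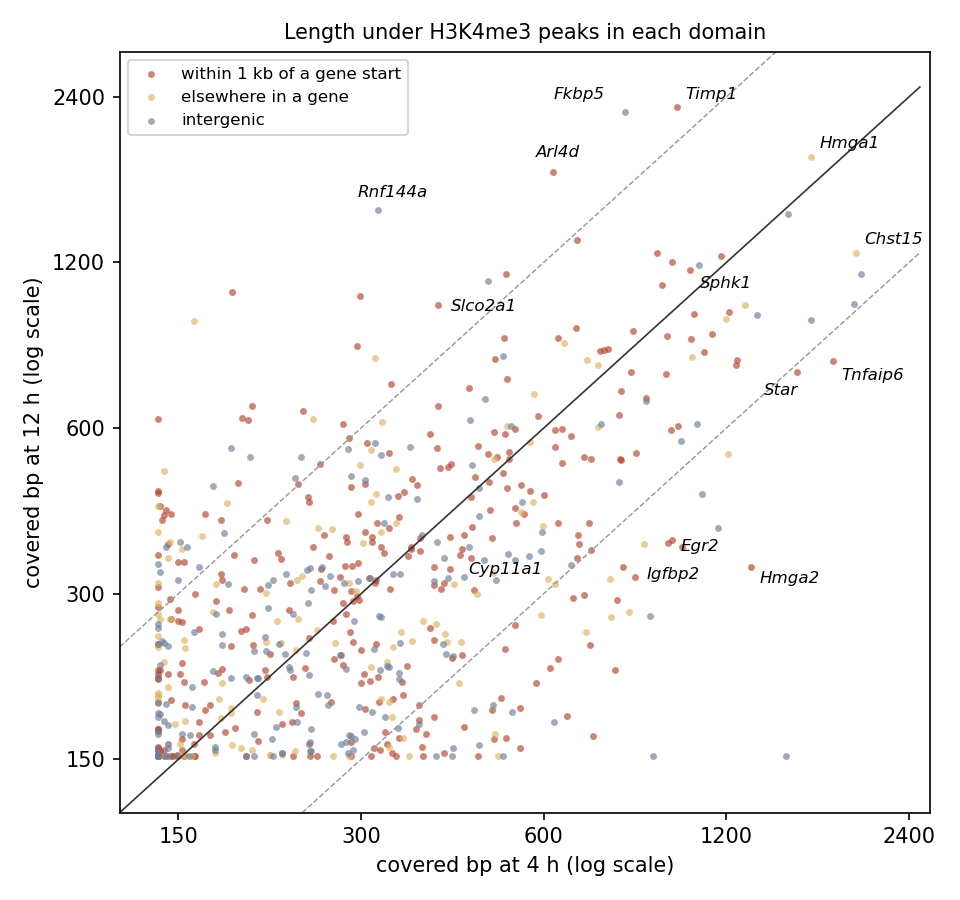
Covered bp at 12 h against covered bp at 4 h for the 639 domains (log axes), coloured by location; the solid line marks equal length and the dashed lines a 2-fold difference. Timp1, Arl4d and Fkbp5 lie above the upper dashed line, Tnfaip6, Star and Hmga2 below the lower one, and the smallest values stack at the narrowest peak width of each library.

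Domains that covered more at 12 h included several of the broadest. Timp1, which encodes an inhibitor of matrix metalloproteinases and lies inside Syn1 (domain chrX:20870341-20872784, 175 bp from the start), had 2300 bp at 12 h, against 995 bp at 4 h (log2 ratio 1.21). Arl4d, a small GTPase gene (chr11:101665637-101667738), had 1753 bp at 12 h, against 621 bp at 4 h. An intergenic domain 18.1 kb from Fkbp5, the gene of a co-chaperone of steroid receptors (chr17:28504270-28507212), had 2255 bp at 12 h, against 815 bp at 4 h (1.47), with 5 peaks at 12 h and 4 at 4 h. All 3 domains were at least 2102 bp wide. Slco2a1, a prostaglandin transporter gene, had 1004 bp at 12 h, against 402 bp at 4 h (1.32). A domain in Arhgap23, 45.9 kb from its start, had 803 bp at 12 h, against 316 bp at 4 h (1.35). One lying 200 kb from Rnf144a had 1496 bp at 12 h, against 320 bp at 4 h (2.22), and it was not found when peaks below the 25th width percentile were left out.

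Domains that covered less at 12 h were found at and away from gene starts. Hmga2, a chromatin architecture gene (chr10:120474654-120477185), had 336 bp in 1 peak at 12 h, against 1319 bp in 4 peaks at 4 h (-1.97). Igfbp2, an IGF-binding protein gene, had 376 bp at 12 h, against 975 bp at 4 h (-1.37), and Zfp365 had 322 bp at 12 h, against 849 bp at 4 h (-1.40). Igdcc3, a cell-surface immunoglobulin family gene, had 365 bp at 12 h, against 1014 bp at 4 h (-1.47), and was not in the class without the narrowest peaks. An intergenic domain 151 kb from Tmc1 at the start of a long non-coding RNA gene had 394 bp at 12 h, against 1160 bp at 4 h (-1.56). Each of these had 1 peak at 12 h except Igdcc3, which had 2.

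**Figure D4:**
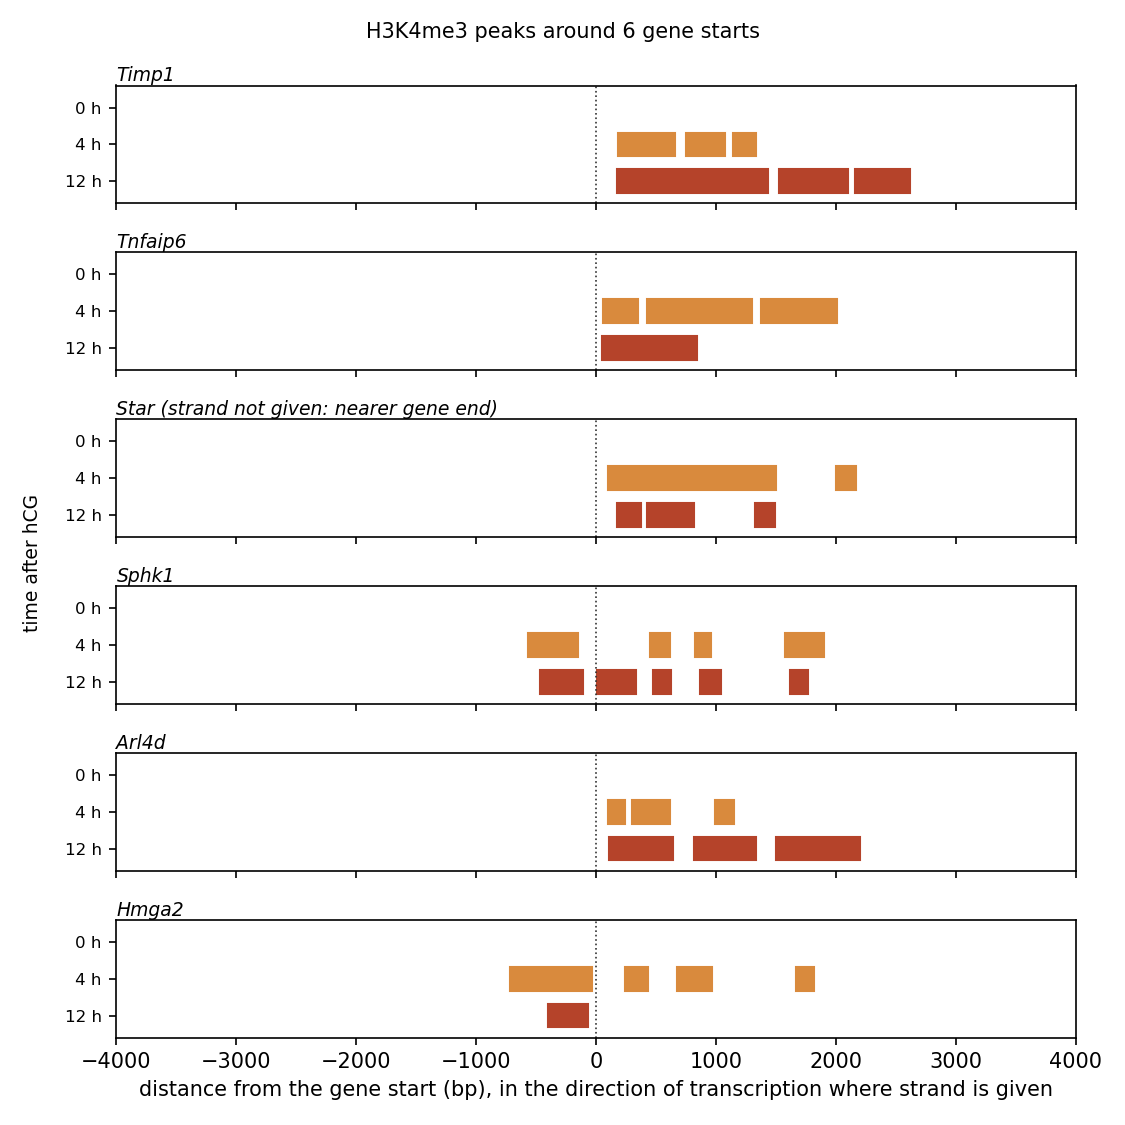
Peaks at 0 h, 4 h and 12 h around 6 gene starts, by distance from the start in bp; each bar is 1 deposited peak. No bar appears at 0 h, the bars of Timp1 and Arl4d reach farther downstream at 12 h than at 4 h, and those of Tnfaip6 and Hmga2 cover less at 12 h.

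Of 40 genes of the ovulatory response to LH, 10 (25%) had a gained and kept domain within 1 kb of a start, against 1.54% of all 21631 protein-coding genes. All 10 were among the 18 list genes with no 0 h domain at a start, and over all genes without one the share was 2.89%. The count was 8 when peaks below the 25th width percentile were left out, the same as for the immediate early genes in that setting. The list was drawn up with earlier results of these data known, so its count is no independent evidence. Tnfaip6 encodes a hyaluronan-binding protein that crosslinks the expanded cumulus matrix, and its domain (chr2:52038162-52040119) had 0 bp at 0 h, 1797 at 4 h and 794 at 12 h. Sphk1, which makes sphingosine 1-phosphate, had 0 bp at 0 h, 1043 at 4 h and 1164 at 12 h, in 4 peaks at 4 h and 5 at 12 h. Snap25, a membrane fusion protein gene, had 0 bp at 0 h, 488 at 4 h and 479 at 12 h. Tnfaip6 was thus long at 4 h and shorter at 12 h, while Sphk1 and Snap25 were nearly equal in length. Prkg2, a cyclic GMP-dependent kinase gene, had 0 bp at 0 h, 311 at 4 h and 152 at 12 h, the last at the narrowest width of the 12 h list. Timp1 and Hmga2, described above, and Star and Sfrp4, described with progesterone synthesis, are also on this list. Its other members, Ptger4, a prostaglandin E2 receptor gene (0 bp at 0 h, 222 at 4 h and 174 at 12 h), and Abcb1b, an efflux transporter gene (0 bp at 0 h, 295 at 4 h and 844 at 12 h), were named after their values were seen.

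**Figure D5:**
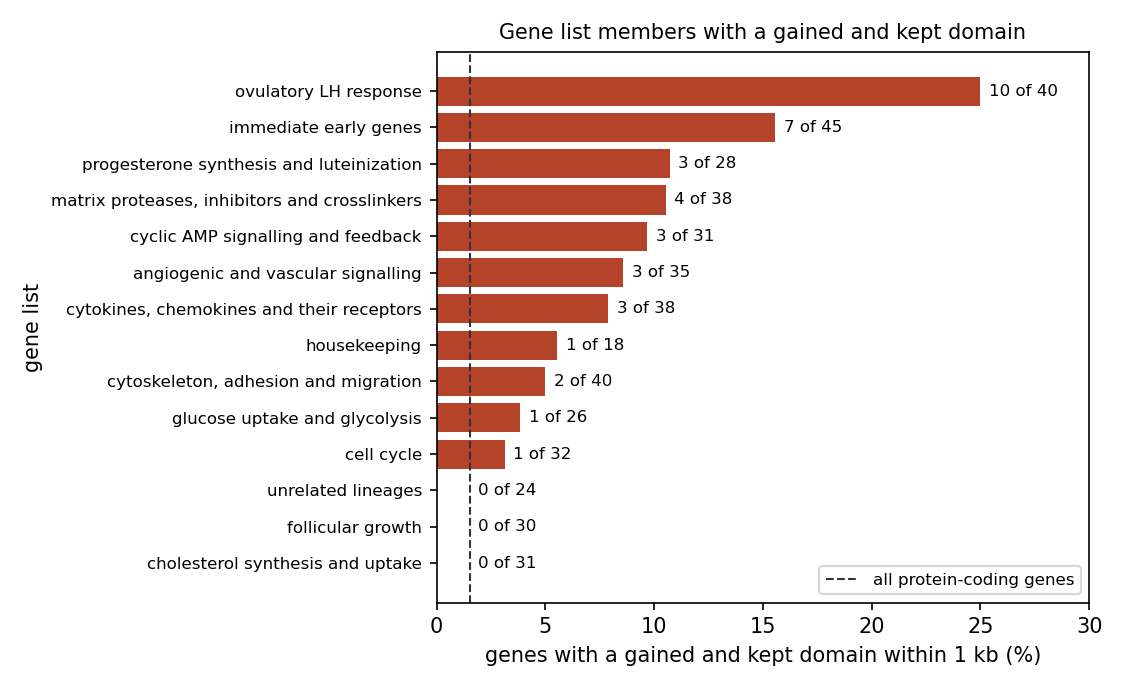
Share of each gene list (%) with a gained and kept domain within 1 kb of a gene start; the dashed line is the share of all protein-coding genes (1.54%) and the labels give counts. The ovulatory LH response list is at 25% (10 of 40), and the cholesterol, follicular growth and unrelated lineage lists are at 0.

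Of 45 immediate early genes, which respond to signals without new protein synthesis, 7 (15.6%) had such a domain, and 37 already had a 0 h domain at a start. Of the 8 without, 6 had one. Arc, an activity-regulated gene, had 0 bp at 0 h, 1250 at 4 h and 797 at 12 h. Fosl1, an AP-1 subunit gene, had 0 bp at 0 h, 766 at 4 h and 834 at 12 h, and Egr3, a zinc finger factor gene, 0 bp at 0 h, 498 at 4 h and 802 at 12 h. Egr2 had 0 bp at 0 h, 962 at 4 h and 371 at 12 h in its domain, with a separate 0 h domain at a start. Dusp4, a phosphatase gene that switches off MAP kinases, had 0 bp at 0 h, 713 at 4 h and 403 at 12 h. The domain of the related Dusp2, named after its values were seen, had 0 bp at 0 h, 139 at 4 h and 152 at 12 h, the narrowest widths of both lists. Per1, a clock gene, had 0 bp at 0 h, 411 at 4 h and 154 at 12 h and a 0 h peak 2558 bp away. The strands of Arc, Fosl1, Egr3 and Dusp4 are not in the tables used here, so either end of these genes could count as the start. The same holds for Prkg2, Snap25, Star, Sfrp4, Lox and Cxcl5 on the other lists.

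Genes of the first steps of progesterone synthesis had such domains. Star, which carries cholesterol into the mitochondrion, had 0 bp at 0 h, 1567 at 4 h and 757 at 12 h (chr8:25808575-25810639), with no strand given. Cyp11a1, whose enzyme cleaves the cholesterol side chain, had 0 bp at 0 h, 437 at 4 h and 353 at 12 h in 1 peak at each later time, 638 bp from the start (chr9:58015590-58016026). Sfrp4, a secreted modulator of Wnt signalling that is abundant in luteal cells of rodents, had 0 bp at 0 h, 396 at 4 h and 179 at 12 h. A 0 h peak lay 3747 bp from it, and the domain was found again under 3 of 7 other peak and joining settings, as was that of Per1. With Star and Sfrp4 shared with the LH list, 3 of 28 genes (10.7%) had such a domain. Of 31 cholesterol synthesis and uptake genes, 28 had a 0 h domain at a start and 0 had a gained and kept one, and of 30 follicular growth genes 21 had a 0 h domain and 0 a gained and kept one. These lists had 3 and 9 genes without a 0 h domain. The progesterone list and the cyclic AMP list also had 9 each, and in each of them 3 had a gained and kept domain. Over all genes the share was 1.54%, and it was 2.89% over those without a 0 h domain at a start. At such shares, a count of 0 in the small cholesterol and follicular growth lists is no result about their genes. Why these lists had 0 was not tested. With peaks below the 25th width percentile left out, 2 cholesterol genes and 1 follicular growth gene had such a domain.

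Of 38 matrix proteases, inhibitors and crosslinkers, 4 (10.5%) had a domain, and 18 had no 0 h domain. Besides Timp1, Lox, whose enzyme crosslinks collagen, had 0 bp at 0 h, 538 at 4 h and 598 at 12 h, while the protease genes Mmp11 (0 bp at 0 h, 310 at 4 h and 208 at 12 h) and Mmp15 (0 bp at 0 h, 185 at 4 h and 353 at 12 h, named after its values were seen) had narrow ones. The count was 2 when peaks below the 25th width percentile were left out. Of 35 angiogenic and vascular genes 3 (8.57%) had one. Ccn1, a secreted matricellular protein gene, had 0 bp at 0 h, 627 at 4 h and 554 at 12 h, and Sema3e, an axon and vessel guidance gene, 0 bp at 0 h, 362 at 4 h and 361 at 12 h. Dll4, a Notch ligand gene (0 bp at 0 h, 304 at 4 h and 185 at 12 h), was named after its values were seen.

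Of 38 cytokine, chemokine and receptor genes, 3 (7.89%) had a domain. Csf1, a growth factor gene for macrophages, had 0 bp at 0 h, 699 at 4 h and 532 at 12 h, Cxcl12, a chemokine gene, had 0 bp at 0 h, 395 at 4 h and 335 at 12 h, and Cxcl5, named after its values were seen, 0 bp at 0 h, 139 at 4 h and 170 at 12 h. Cyclic AMP genes had 3 of 31 (9.68%). Pde10a, which encodes a cyclic nucleotide phosphodiesterase, had 0 bp at 0 h, 682 at 4 h and 384 at 12 h, and the adenylyl cyclase gene Adcy3, named after its values were seen, had 0 bp at 0 h, 282 at 4 h and 337 at 12 h. The third was Per1, and without peaks below the 25th width percentile the count was 1. Cytoskeletal and adhesion genes had 2 of 40 (5%): Epha2, an ephrin receptor gene, with 0 bp at 0 h, 502 at 4 h and 531 at 12 h, and Cald1, an actin-binding protein gene with a separate 0 h domain at a start, with 0 bp at 0 h, 451 at 4 h and 709 at 12 h. Eno2 was 1 of 26 glycolysis genes and Cdkn2b, a cell cycle inhibitor gene, 1 of 32 cell cycle genes, both named after their values were seen, and no cell cycle gene remained without peaks below the 25th width percentile. The housekeeping list also had 1 of 18, Tbp (0 bp at 0 h, 389 at 4 h and 260 at 12 h), with a 0 h peak 1789 bp away, and the list of unrelated lineages had 0 of 24. In all, 34 of 430 list genes had such a domain. The shares of all these lists are to be read against 1.54% of all protein-coding genes. Over the genes without a 0 h domain at a start it was 2.89%. The lists were chosen with earlier results of these data known, so their counts are no independent evidence.

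Among the 15 domains with the most covered bp, 10 lay away from gene starts. The first by summed length was in Hmga1, another chromatin architecture gene, 1148 bp from its nearest start (chr17:27557752-27560270), with 0 bp at 0 h, 1654 at 4 h and 1868 at 12 h. A domain inside Chst15, a chondroitin sulfate sulfotransferase gene, lay 38.4 kb from the start (chr7:132276288-132278603) and had 0 bp at 0 h, 1962 at 4 h and 1249 at 12 h. One inside Adamts9, a matrix protease gene, lay 113 kb from the start and had 0 bp at 0 h, 1289 at 4 h and 1005 at 12 h. These intragenic domains and the leading promoters were all picked by covered bp, so their lengths cannot be used to compare the locations. Over the whole class the median width was 509 bp elsewhere in genes and 637.5 bp at gene starts. Between genes, 2 domains 18.9 and 35.6 kb from Serp2 together spanned 18.0 kb (chr14:76575793-76593817), with nothing covered at 0 h. The nearer covered 1141 bp at 12 h, against 2002 bp at 4 h. The farther covered 964 bp at 12 h, against 1347 bp at 4 h. One domain 365 kb from the nearest start, that of Runx1, had 0 bp at 0 h, 1946 at 4 h and 1009 at 12 h and lay at the start of a long non-coding RNA gene (chr16:93191232-93193803). Another lay at such a start 20.2 kb from Pthlh, the parathyroid hormone-related peptide gene, and had 0 bp at 0 h, 1653 at 4 h and 943 at 12 h. A domain 75.4 kb from Il6, the interleukin 6 gene, had 0 bp at 0 h, 1083 at 4 h and 1188 at 12 h. One 82.7 kb from Arf6 had 0 bp at 0 h, 1517 at 4 h and 1469 at 12 h, but a 0 h peak lay 1043 bp from it. Of the 5 domains at gene starts, 1 lay at a predicted gene in Mideas (chr12:84192327-84193772), with 0 bp at 0 h, 1176 at 4 h and 1233 at 12 h. Distance alone does not link a domain to the gene named.

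The promoters of this class had an intermediate CpG content. Over 300 promoter windows (250 bases before to 50 after the start, RefSeq GRCm38.p6) of 257 genes with such a domain within 1 kb and no other, the median ratio of observed to expected CpG was 0.67 (quartiles 0.52 and 0.84). It was 0.81 over 9804 windows with a domain of all 3 times and 0.23 over 9803 windows with no domain. The median GC content was 63.3%, against 62.3% with a domain of all times and 49.7% with none. A CpG ratio under 0.6 was found in 36% of the 300 windows, against 18.6% and 86.9%. Single-time classes had medians of 0.61 for 0 h alone, 0.65 for 4 h alone and 0.65 for 12 h alone. The median was 0.67 for 0 h and 4 h without 12 h, and 0.69 for 0 h and 12 h without 4 h. A CpG ratio under 0.6 was found in 39.2% and 38.3% of the windows of these classes. The intermediate CpG content was thus shared with classes that had a 0 h peak and is not particular to the gained and kept class. The window of the Cyp11a1 start shown above had 0.054, that of Timp1 0.38 and that of Arl4d 0.92. The gained and kept class therefore holds CpG-poor and CpG-rich promoters alike.

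The 9 motifs were searched on both strands of the same windows, and windows of a gene with several starts can share bases. The AP-1 motif TGANTCA was in 26 of 300 windows (8.67%, 95% interval 5.74 to 12.4), against 3.71% of windows with a domain of all times, 10.4% of those with none and 7.04% of all 21020 windows. The ETS motif CCGGAAG was in 22 (7.33%, 4.65 to 10.9), against 21.3% with a domain of all times, 2.69% with none and 11.7% of all. The SP and KLF motif GGGCGGG was in 154 (51.3%), against 52.0% with a domain of all times and 34.2% of all. The cyclic AMP response element TGACGTCA was in 7 (2.33%), against 3.73% with a domain of all times and 2.26% of all windows. The NR5A motif AAGGTCA was in 4 (1.33%), against 2.62% with a domain of all times and 4.06% of all. The GATA motif AGATAA was in 15 (5%), against 5.10% with a domain of all times and 9.69% of all. The RUNX motif TGTGGT was in 33 (11%), against 10.7% and 14.7% for the same sets, and the C/EBP motif TTGCNCAA in 6 (2%), against 2.19% and 2.86%. The shares of GATA, RUNX and C/EBP motifs thus lay close to those of windows marked at all times. The TEAD motif GGAATG was in 46 (15.3%), against 10.9% with a domain of all times and 13.5% of all. Among windows with a domain at 4 h alone the AP-1 share was 6.69% and the ETS share 5.99%, near those of the gained and kept class. The AP-1 share was 7.06% for 0 h alone, 5.99% for 0 h and 4 h without 12 h, and 5% for 0 h and 12 h without 4 h. The ETS shares of these 0 h classes were 10.6%, 8.08% and 10.8%. The AP-1 and ETS contrast with windows marked at all times was thus shared with them and is not particular to the gained and kept class. Motif shares also differ with base composition, whose part was not tested.

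The domains were spread over all chromosomes used, from 3.01% of the domains on chromosome 7 to 5.79% of those on chromosome 14, with 24 of 519 (4.62%) on X. Most stood alone, and 75 of 639 (11.7%) lay within 100 kb of another, in 34 groups of which 30 were pairs. The largest group had 5 domains in 20.8 kb of chromosome 4, at the type I interferon gene Ifnz and 4 predicted genes beside it, covering 270 to 364 bp each at 12 h, against 146 to 323 bp at 4 h. Within the same 20.8 kb, a domain of all 3 times lay at the predicted gene Gm13272, named after its values were seen. It had 142 bp at 0 h, 280 at 4 h and 315 at 12 h, so this stretch was not free of peaks at 0 h. Near-identical copies of genes share reads, so the 5 domains of the group are uncertain as separate signals. The next groups were 4 domains near Vat1, Brca1, Rdm1 and Arl4d on chromosome 11, and 3 near Fkbp5 and Armc12 within 19.7 kb of chromosome 17. The Fkbp5 group had 3229 covered bp at 12 h, against 1715 at 4 h.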

How the data were processed

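The authors deposited 1 peak list per library giving each peak's position in bp and a name, a unit other than a level, with no score or coverage. Per the submitters' processing notes, the tools were MACS2 2.0.9, Bowtie2 2.2.3 and CASAVA 1.8, on build mm10. The sources used here do not state a peak threshold, or whether an input entered the calls. Peak names carry the tag nolambda at 0 h and 4 h but not at 12 h, whose deposited list is itself titled with that tag. Libraries had 18 PCR cycles, per the labels' protocols. Peaks on chromosomes 1 to 19 and X were pooled and joined when at most 1 kb apart, and covered bp is the length under peaks of 1 time in a domain. Depth is unknown, and intervals cover counting error only. Gene starts came from the RefSeq promoter table for 17274 of 21631 protein-coding genes, and for the other 4357 either gene end was used, since their strand is not given in the tables used here. The members and the 14 gene lists were chosen with earlier results of these data known. Genes were named by a written rule. It took the 15 domains with the most covered bp, and up to 25 list members by covered bp at 4 h. It also took the 5 highest and 5 lowest ratios of 12 h over 4 h among domains with at least 300 bp at both times. Last came the 5 domains with the most covered bp over 10 kb from any start. Others are marked as named afterwards, except cell type markers and genes that only give the place of a domain, group or microRNA. Domain calling was tested on simulated data. Alternatives were other joining distances, peak filters, windows and gene ends. Python 3.11.15, pandas 2.3.3 and scipy 1.17.1 were used.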

Additional observations from a re-analysis of the deposited data

Results flagged for a closer look

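Peaks outside the chromosomes used were present in every list, although the labels give female mice. On chromosome Y there were 28 peaks in the 0 h list, 43 in the 4 h list and 25 in the 12 h list. On the mitochondrial genome there were 5 in the 0 h list, 3 in the 4 h list and 6 in the 12 h list. They were noted because they lie outside the domains described, and their source was not tested. No group had enough libraries to look for a library that stands apart.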

How the results depend on the processing

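No paired analysis was possible because each time had 1 library, and for the same reason no library could be left out. Of 45 comparisons of a main result with an alternative, 34 stayed within the interval of the main value or within 1.5 times its count. Joining overlapping or touching peaks only gave 1661 domains, a median width of 319 bp, a gene start share of 59.1% and 1017 genes; it also takes single peaks beside a 0 h peak as domains of their own, and 34.7% of them overlapped the 639. Joining within 500 bp gave a median width of 500.5 bp. The gene start share was 59.0% without peaks below the 25th width percentile, 46.6% with a 500 bp window, 56.3% with a 5 kb window and 44.8% by either gene end. The median log2 ratio of 12 h over 4 h, 0.04 in the main setting, was -0.044 with equal numbers of the widest peaks and -0.10 with at least 300 bp at both times; the cause of these shifts was not tested. The domain count was 710, 629 and 588 with joining within 500 bp, 2 kb and 5 kb, 629 when peaks under the 25th width percentile were dropped, and 585 with no 0 h peak within 5 kb. Without those narrow peaks 51.0% of the 639 were found again, and of the 44 domains named by rule 37 were (not those of Per1, Sfrp4, Sema3e, Prkg2, Mmp11, Rnf144a and Igdcc3). Of these 44, 32 were found under every one of the peak and joining alternatives. The number of list genes was 34 in the main setting and 30 to 47 under the other settings. Depth limits all of this: a domain absent from a list may hold mark below the peak threshold.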

Other observations

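The following genes lie on none of the lists, had a gained and kept domain at a gene start and were named after their values were seen. Etv5, an ETS factor gene downstream of ERK signalling, had 0 bp at 0 h, 977 at 4 h and 1203 at 12 h. Clcf1, a cytokine gene of the IL-6 family, had 0 bp at 0 h, 938 at 4 h and 1090 at 12 h. Cd24a, a cell-surface glycoprotein gene, had 0 bp at 0 h, 1211 at 4 h and 974 at 12 h, and Tmsb4x, the gene of an actin-sequestering peptide on X, had 0 bp at 0 h, 1060 at 4 h and 966 at 12 h. Klf5, a Krüppel-like factor gene, had 0 bp at 0 h, 753 at 4 h and 830 at 12 h, and Gli3, a transcription factor gene of hedgehog signalling, had 0 bp at 0 h, 973 at 4 h and 594 at 12 h.

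MicroRNA hairpins lay within 5 kb of a gained and kept domain in 5 cases. Mir335 lay 2518 bp from a domain at the start of the imprinted gene Mest, which had 0 bp at 0 h, 160 at 4 h and 300 at 12 h. The others were Mir181d, Mir8109, Mir688 and Mir6363. The domain 73 bp from Mir8109, near Neto2, had 0 bp at 0 h, 496 at 4 h and 590 at 12 h.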
